A study of Macaca fuscata with 12 samples.

Results

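Pre-mRNA splicing factors were taken as all probe sets with a single gene symbol of the families HNRNP, SRSF, SNRP, SF3A, SF3B, U2AF, LSM, PRPF, RBFOX, NOVA and ELAVL. The rule found 151 probe sets of 69 genes among 52766 probe sets on the array. By symbol they fall into 6 classes, with 27 probe sets for the Sm and LSm proteins, 28 for the U2 and 3′ splice site factors SF3A, SF3B and U2AF, and 16 for the PRPF proteins. A further 50 belong to the hnRNPs, 15 to the SR proteins and 15 to RBFOX, NOVA and ELAVL. The Sm and LSm class holds all SNRP and LSM symbols, so it includes members such as SNRPA and LSM14B that are not ring proteins. The rule uses names and no measured value.

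Introns are removed from pre-mRNA by the spliceosome, which is built from small nuclear RNAs and their proteins. Sm and LSm proteins form rings on those RNAs, U2AF and the SF3A and SF3B complexes recognise the 3′ end of the intron, and PRPF proteins work around the tri-snRNP and the later rearrangements. SR proteins mostly favour the use of an exon and hnRNPs often oppose it, while RBFOX and NOVA proteins are best known for setting exon choice in neurons. ELAVL proteins, which bind AU-rich and U-rich RNA, were taken with them.

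RNA of Japanese macaques (Macaca fuscata) was hybridised to Affymetrix arrays designed for the rhesus macaque. The tissue was left cerebral cortex, taken around the intraparietal sulcus (IPS) or around the lateral sulcus with the secondary somatosensory area (SII). The 4 groups were IPS trained, IPS control, SII trained and SII control, with 3 arrays each, and trained animals had been trained in tool use. The 12 arrays came from 8 animals, 4 of which gave tissue from both regions. No genetic change or drug is named for any group, and the labels do not describe what the control animals did. The IPS trained animals were males of 5 years 7 months, 6 years 0 months and 5 years 1 month, and the IPS controls males of 5 years 4 months, 5 years 10 months and 3 years 9 months. The SII trained animals were a male of 5 years 7 months, a female of 3 years 10 months and a male of 5 years 1 month. The SII controls were a female of 4 years 6 months and males of 5 years 4 months and 5 years 10 months. The females are thus SII trained 2 and SII control 1, and they were the youngest of the SII animals.

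All values below are deposited log2 values, each given against its probe set's own median over the 12 arrays, so levels of different probe sets cannot be compared. A change is a difference of group means with its standard error. The 27 hybridisation control probe sets had a median of 0.46 in IPS trained 3, 0.54 in SII trained 2 and 0.45 in SII control 1, against -0.13 to 0.08 in the other 9 arrays. IPS and SII arrays have differing name stems and no hybridisation date in the labels, so a region and a batch of hybridisation cannot be told apart. In bulk tissue, fewer cells of a type and less RNA per cell cannot be told apart either. Of the 151 probe sets, 133 were stored with a coarse number spacing, a rough sign of a clear signal, 13 with a fine spacing, and 5 (of HNRNPF, NOVA2, SF3A1, SF3B6 and U2AF1) held the lowest value of an array in at least 2 arrays. For 22 members the probe set's name ends in a suffix for probes that may detect several transcripts or genes, and near-identical genes such as HNRNPH1 and HNRNPH2 may share signal. The median SD within groups was 0.30 for the members and 0.57 for all probe sets, and 0.29 against 0.34 where only coarse spacing was counted.

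Tool-use training was compared with control first in SII, as the study's design states. None of the 151 members passed the 5% level in limma after adjustment over all probe sets (background 0.0%). At an unadjusted p under 0.05, 2 members lay lower in trained animals and none higher, while 3.87% of all probe sets passed that level, 2.53% higher and 1.35% lower. Among probe sets with coarse spacing, it was 2 of 133 members and 1.61% of all. The members were balanced around 0. In 75 of 151 the change was above 0, compared with 56.4% of all probe sets, and their median change was 0.00, against 0.06 for all. The members' changes spanned -1.82 to 1.01, and the median standard error of 0.28 shows how wide a single change is.

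The 2 members at p under 0.05 in SII were SRSF10 and HNRNPK. SRSF10, an SR-type protein that in its dephosphorylated form represses splicing, was represented by MmugDNA.35582.1.S1_at, with values of -0.50, -0.09 and 0.10 in SII trained animals and 0.70, 0.17 and 0.24 in SII controls. All 3 trained arrays lay below all 3 controls, and the change was -0.53 ± 0.24 (SE, adjusted p = 1.0 in limma). The other SRSF10 probe set, MmugDNA.3090.1.S1_at, had -0.28, -0.06 and 0.17 in SII trained animals and 0.06, 0.26 and 0.58 in SII controls. These groups overlapped and the change of -0.35 ± 0.25 had the same sign.

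HNRNPK, which binds cytosine-rich RNA, had -1.06, -1.19 and -0.06 in SII trained animals on 1 of its 5 probe sets, against 1.01, 0.79 and 1.23 in SII controls. The groups were far apart, with a change of -1.82 ± 0.82 (adjusted p = 1.0 in limma). The same probe set held -1.17, -1.95 and 1.97 in the IPS controls, a wider spread than in any other group. The other 4 HNRNPK probe sets had SII changes of -0.33 to 0.06, so the gap was seen on a single probe set of the gene. Without the 3 arrays with raised hybridisation controls neither SRSF10 (-0.40) nor HNRNPK (-1.82) had an unadjusted p under 0.05 in SII.

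The rest of the SII picture was of small changes within each class. Of the hnRNPs, 19 of 50 lay above 0 in trained animals with a median of -0.03, and of the U2 and 3′ splice site factors 20 of 28 lay above 0 with a median of 0.06. The U2 class included all 5 U2AF probe sets, at 0.03 to 0.39, and 9 of 11 SF3A probe sets. SF3A3, a subunit of the SF3A complex that joins the U2 particle to the branch site, had the smallest p of its class, with a change of 0.36 ± 0.25 on MmuSTS.2156.1.S1_at (adjusted p = 1.0 in limma), and its 3 probe sets lay between 0.11 and 0.36. On the probe set of smallest p it was 0.61 without SII control 1 and 0.21 without SII control 3.

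Sm and LSm proteins had a median SII change of -0.03 (13 of 27 above 0), PRPF proteins -0.06 (6 of 16), SR proteins 0.02 (9 of 15) and RBFOX, NOVA and ELAVL 0.03 (8 of 15). SNRPN is an imprinted, neuron-rich relative of the core Sm protein SNRPB. On MmugDNA.26312.1.S1_at it had -0.71, 0.45 and 0.14 in SII trained animals and 0.70, 0.38 and 0.50 in SII controls. The groups overlapped through SII trained 2, and the change was -0.57 ± 0.37 (adjusted p = 1.0 in limma). PRPF31, a tri-snRNP protein whose loss in humans causes retinal degeneration, had a change of -0.29 ± 0.27 in SII (adjusted p = 1.0 in limma). It was -0.49 without SII trained 2, -0.18 without SII control 3 and -0.11 without SII trained 1, and SNRPN had -0.25 without SII trained 1.

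Without overlap between the groups in SII were 7 of 151 members, 3 higher and 4 lower in trained animals, against a background of 7.08%, with 4.7% higher and 2.38% lower. The higher ones, chosen by this pattern after their values were seen, were RBFOX1 (MmugDNA.19443.1.S1_at, 0.12), SF3A1 (MmugDNA.615.1.S1_s_at, 0.25) and HNRNPLL (MmugDNA.8249.1.S1_at, 0.54). The lower ones were SRSF10 and HNRNPK as above, RBFOX2 (MmugDNA.24805.1.S1_at, -0.44) and SRSF5 (-0.49 on 1 of its 4 probe sets). The members' share was no higher than that of the array as a whole.

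Training was then compared in IPS, where again none of the 151 members passed 5% in limma after adjustment (background 0.0%). At an unadjusted p under 0.05, 2 members lay lower and none higher in trained animals, against 3.27% of all probe sets, with 1.81% higher and 1.46% lower. With coarse spacing it was 0 of 133 members and 1.33% of all. In 70 of 151 the change was above 0, compared with 51.7% of all probe sets, and the median change was -0.02, against 0.01 for all. The changes spanned -1.62 to 1.03. In the plot of training changes most points in both regions lie close to the line at 0.

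**Figure D1:**
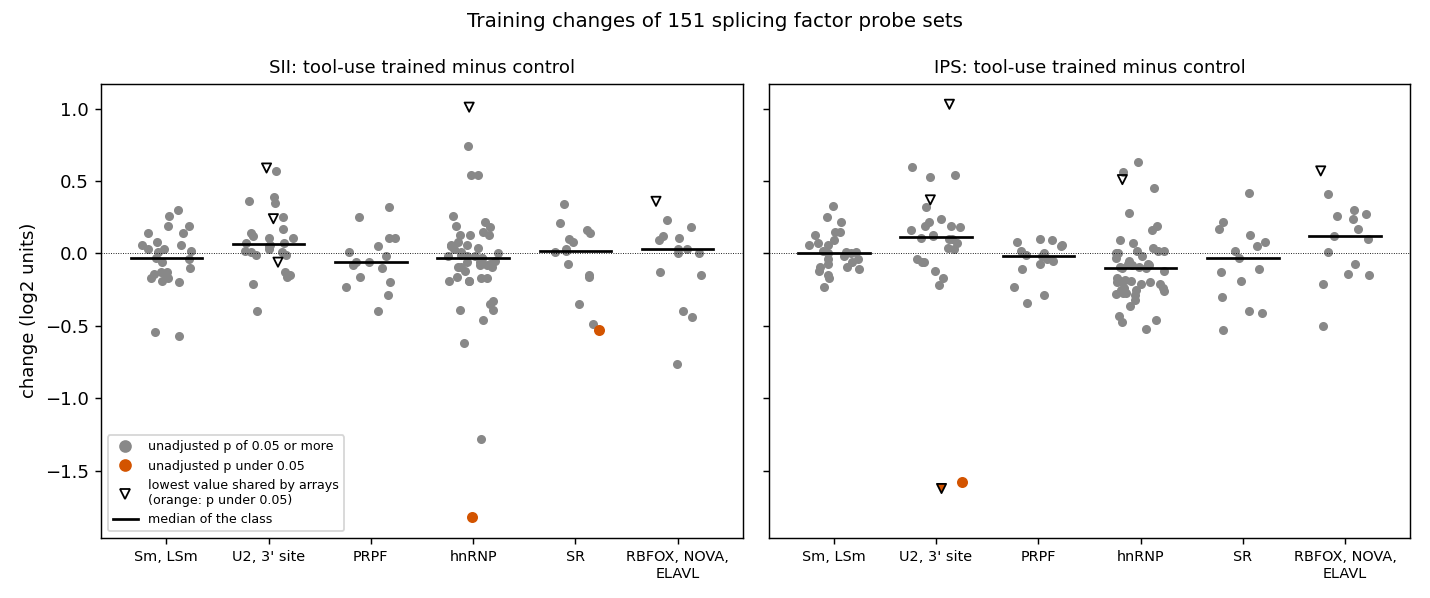
Training changes of the 151 splicing factor probe sets by class, trained minus control, in log2 units, with SII in the left panel and IPS in the right one. Points are probe sets, orange marks an unadjusted p under 0.05, triangles mark probe sets that held the lowest value in at least 2 arrays, and bars are class medians. The medians lie between -0.10 and 0.12, while single probe sets reach -1.82 in SII and -1.62 in IPS.

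Both members at p under 0.05 in IPS code for subunits of SF3B, the complex that holds the branch site of the intron. SF3B3 (MmugDNA.11950.1.S1_at) had -2.86, -1.91 and 0.19 in IPS trained animals and 0.48, -0.27 and -0.09 in IPS controls. The first and second trained arrays were far below all other arrays and the third lay within the controls, so that the change of -1.58 ± 0.66 (adjusted p = 1.0 in limma) rests on those 2 arrays. It was -0.90 without IPS trained 1 and -2.52 without IPS trained 3, the ends of the range over all single arrays left out.

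SF3B6, the small subunit that touches the branch point adenosine, had -1.57, -2.61 and -0.59 in IPS trained animals on MmugDNA.18877.1.S1_at, against 0.33, -0.06 and -0.09 in IPS controls. The groups did not overlap (change -1.62 ± 0.67, adjusted p = 1.0 in limma), but IPS trained 2 held the lowest value of its array, so its value is only an upper limit. SF3B3 is one of the 13 members with a fine number spacing, and the other probe sets of both genes lay slightly higher in trained animals, at 0.12 and 0.18 for SF3B3 and 0.19 and 0.22 for SF3B6. The members of the SF3B complex as a whole had 8 of 12 changes above 0, with a median of 0.12.

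The hnRNPs lay lower in IPS trained animals more often than higher. Of 50 probe sets 13 were above 0, with a median change of -0.10 and none at p under 0.05. Within the class, all 12 probe sets of HNRNPH1, HNRNPH2 and HNRNPH3, which bind runs of guanines near exons, had changes of -0.46 to 0.00, with a median of -0.20. All 9 of HNRNPD and HNRNPDL, AU-rich element binding proteins, had -0.52 to -0.08, with a median of -0.27. Both subsets were singled out after their values were seen. In SII the HNRNPD and HNRNPDL probe sets were mixed, with 5 of 9 above 0. The array medians of the class were 0.32, -0.09 and -0.03 in IPS trained animals and 0.05, 0.18 and 0.18 in IPS controls, so IPS trained 1 lay above every control and the groups overlapped.

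HNRNPL, which binds CA-rich RNA, had the smallest p among the hnRNPs in IPS and the opposite sign. On 1 of its probe sets it had 0.32, 1.07 and -0.03 in IPS trained animals and -0.33, -0.02 and -0.14 in IPS controls. The groups overlapped narrowly, and the change was 0.63 ± 0.37 (adjusted p = 1.0 in limma). It was 0.32 without IPS trained 2 and 0.96 without IPS trained 3.

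The RBFOX, NOVA and ELAVL class had 10 of 15 probe sets above 0 in IPS, with a median change of 0.12. RBFOX1, the FOX protein of neurons and muscle, had -0.06, 0.31 and -0.02 in IPS trained animals on MmuSTS.4690.1.S1_at, against -0.23, -0.23 and -0.52 in IPS controls. All trained arrays lay above all controls (0.41 ± 0.21, adjusted p = 1.0 in limma), while the other RBFOX1 probe sets had -0.15 and 0.24. NOVA2 had a change of 0.57 in IPS and 0.36 in SII, but its only probe set held the lowest value in most arrays, so its values have no safe order. NOVA1, its close relative, had -0.07 and 0.17 in IPS and 0.03 and 0.23 in SII.

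Among the ELAVL genes, whose proteins bind AU-rich and U-rich RNA, the IPS training changes were -0.21 for ELAVL1, 0.01 and 0.27 for ELAVL2, -0.50 for ELAVL3, and 0.10 and 0.30 for ELAVL4. In SII they were 0.18 for ELAVL1, -0.40 and 0.11 for ELAVL2, -0.76 for ELAVL3, and 0.00 on both probe sets of ELAVL4. ELAVL3 was thus lower in trained animals in both regions, on a probe set with a wide spread. RBFOX2, the broadly expressed FOX protein, had IPS changes of -0.14 to 0.26 over its 3 probe sets, against -0.44 to -0.13 in SII.

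The core classes lay close to 0 in IPS. The Sm and LSm proteins had a median of 0.00 (14 of 27 above 0), PRPF proteins -0.01 (6 of 16), and SR proteins -0.03 (7 of 15). SNRPF, a ring member, had -0.23 ± 0.21 (adjusted p = 1.0 in limma), and PRPF31 -0.29 ± 0.27 (adjusted p = 1.0 in limma). For PRPF31 this was -0.50 without IPS trained 1 and -0.10 without IPS trained 3. All 3 PRPF31 probe sets lay below 0 in both regions. The U2 and 3′ splice site factors had a median of 0.11, with 20 of 28 above 0, among them 4 of 5 U2AF and 8 of 11 SF3A probe sets.

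Groups did not overlap in IPS for 15 members, 6 higher and 9 lower in trained animals, against a background of 9.49%, with 5.77% higher and 3.72% lower. The higher ones, chosen by this pattern after their values were seen, included U2AF1L4 (0.53), an alternative small U2AF subunit, and SF3A1 (MmugDNA.25154.1.S1_at, 0.60 ± 0.27, adjusted p = 1.0 in limma). For SF3A1 the values were 0.04, 0.28 and 0.19 in IPS trained animals and -0.39, -0.21 and -0.71 in IPS controls. The 8 SF3A1 probe sets ranged from -0.17 to 0.60, so they did not share 1 sign. The lower ones included SRSF5 on 2 of its 4 probe sets, at -0.53 and -0.30, and the remaining probe sets of this SR protein had -0.19 and 0.02.

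The difference between the training changes, IPS minus SII, was tested directly. No member passed 5% in limma after adjustment (background 0.0%), and 2 had an unadjusted p under 0.05, 1 in each direction, against 3.68% of all probe sets, with 1.63% higher and 2.05% lower. Of those with coarse spacing, 1 of 133 members and 1.46% of all passed. In 69 of 151 the difference was above 0, compared with 46.5% of all probe sets.

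SRSF10 had the smallest p. On MmugDNA.35582.1.S1_at it had -0.07, 0.19 and 0.07 in IPS trained animals and -0.25, -0.50 and -0.34 in IPS controls. All trained arrays were higher there (0.42 ± 0.24, adjusted p = 1.0 in limma), whereas in SII all trained arrays were lower. The difference was 0.95 ± 0.33 (adjusted p = 1.0 in limma). Groups without overlap in both regions and with opposite signs were found for 0.309% of all probe sets. The second SRSF10 probe set had a difference of 0.48 ± 0.35 (adjusted p = 1.0 in limma).

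SF3B6 had a difference of -2.21 ± 0.94 (adjusted p = 1.0 in limma), with SII control 1 also at the lowest value of its array. For HNRNPK the difference was 2.38 ± 1.13 (adjusted p = 1.0 in limma), and for RBFOX2 0.70 ± 0.38 on MmugDNA.24805.1.S1_at (adjusted p = 1.0 in limma). In the other classes the smallest p belonged to LSM5, a member of the LSm ring on U6 RNA, at 0.76 ± 0.60 (adjusted p = 1.0 in limma), and to PRPF39, a U1-associated protein, at -0.66 ± 0.67 (adjusted p = 1.0 in limma). Single arrays moved several of these. The difference was -1.41 for SF3B6 without SII control 1 and 1.56 for HNRNPK without IPS control 2. For LSM5 it was 0.27 without SII trained 2 and 1.23 without SII trained 1. For PRPF39 it was -1.16 without SII trained 2, and between -0.40 and -0.32 without SII trained 1, SII trained 3, SII control 1 or IPS trained 2.

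Averaged over both regions, no member passed 5% in limma (background 0.0%) and none had an unadjusted p under 0.05, against 3.48% of all probe sets, with 2.23% higher and 1.25% lower, and 1.43% of those with coarse spacing. In 63 of 151 the average was above 0, compared with 55.7% of all probe sets. The 5 members of smallest p were SF3B3 (-0.86 ± 0.47), U2AF2 (0.35 ± 0.20), NOVA2 (0.47 ± 0.27), ELAVL3 (-0.63 ± 0.42) and HNRNPU (-0.74 ± 0.49), each with an adjusted p of 1.0 in limma. The average for SF3B3 was -0.53 without IPS trained 1 and -1.30 without IPS trained 3. Without SII control 2 it was 0.23 for U2AF2 and 0.28 for NOVA2. For ELAVL3 it was -0.36 without SII trained 1 and -0.97 without SII trained 2, and for HNRNPU -0.30 without SII trained 2. U2AF2 is the large subunit that binds the polypyrimidine tract, and HNRNPU is a nuclear scaffold protein.

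More members passed an unadjusted p under 0.05 between the regions than between the training groups. In IPS against SII, averaged over training, 15 members lay higher and 3 lower at an unadjusted p under 0.05, which is 18 of 151, against 9.26% of all probe sets, with 4.08% higher and 5.18% lower. None passed 5% in limma after adjustment (background 0.0%), and the smallest adjusted p was 0.421. In 90 of 151 the difference was above 0, compared with 49.2% of all probe sets, and the median was 0.09, against -0.01 for all. In 7 members, all higher in IPS, the 6 IPS arrays lay above all 6 SII arrays, where 0.984% of all probe sets had no overlap and 0.639% were higher in IPS. The background was closer to the members among probe sets with coarse spacing. There 15 of 133 members (11.3%) had a p under 0.05, against 10.3% of all, and 61.7% of members lay above 0, against 55.6% of all. Their medians were 0.11 for members and 0.04 for all, and 7 members (5.26%) had no overlap, against 1.62% of all. The number of members at p under 0.05 depended on single arrays, with 10 without IPS control 1, 32 without SII trained 1 and 28 without SII trained 3. It was 8 with male animals only and 6 in the 4 animals with both regions. The share of all probe sets under those fits was not computed, so these shifts cannot be set against the array.

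The hnRNPs made up most of this shift, as the plot of regional differences shows. Of 50 hnRNP probe sets 39 lay higher in IPS, with a median of 0.24, and 9 of them had an unadjusted p under 0.05. The other classes had medians of 0.14 for the SR proteins, 0.05 for RBFOX, NOVA and ELAVL, 0.02 for PRPF, 0.00 for Sm and LSm and -0.04 for the U2 and 3′ splice site factors.

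**Figure D2:**
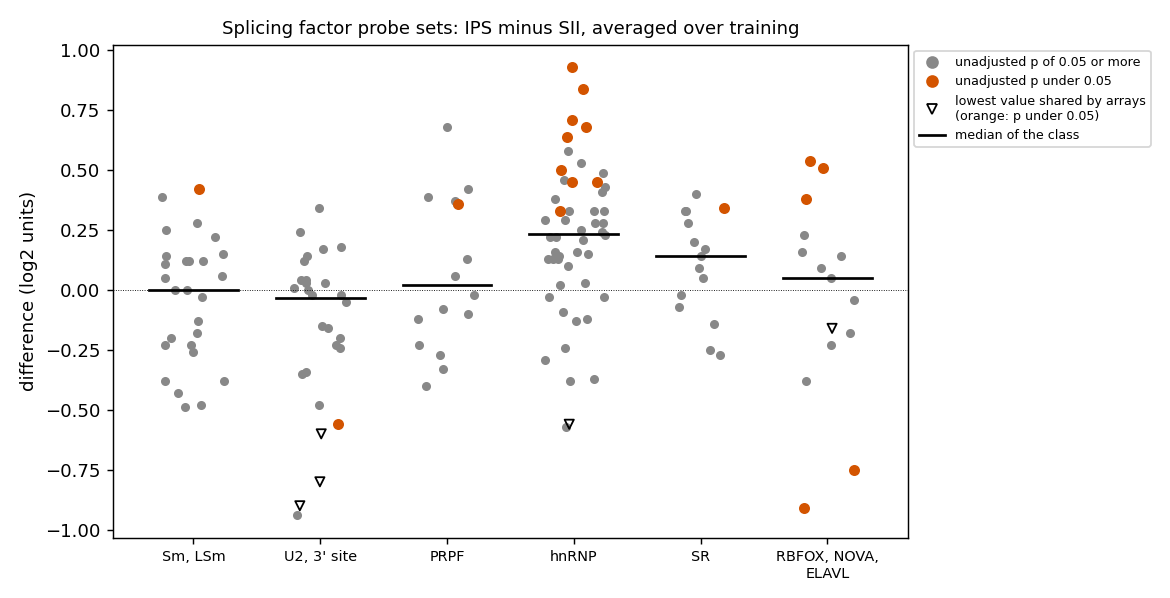
Differences between the regions, IPS minus SII averaged over training, in log2 units, for the 151 splicing factor probe sets by class. Points are probe sets, orange marks an unadjusted p under 0.05, triangles mark probe sets that held the lowest value in at least 2 arrays, and bars are class medians. The hnRNP median is 0.24 with 9 orange points, all above 0.

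All 12 probe sets of HNRNPH1, HNRNPH2 and HNRNPH3 lay higher in IPS, at 0.14 to 0.93 with a median of 0.48. Of them 6 had an unadjusted p under 0.05, against 9.26% of all probe sets, 4.08% higher, and 10.3% of those with coarse spacing. This subset is not one of the 6 classes and was singled out after its values were seen. It holds 3 genes, with 6 probe sets of HNRNPH1, which may share signal, so the probe sets are not independent. HNRNPH1 on MmugDNA.11106.1.S1_at had 0.40, 0.69 and 0.12 in IPS trained and -0.01, 0.24 and 0.97 in IPS control animals. It had 0.01, -0.49 and -0.56 in SII trained and -0.17, -0.05 and -0.66 in SII control animals. Only IPS control 1 lay within the SII range, and the difference was 0.71 ± 0.22 (adjusted p = 0.454 in limma). This probe set had a fine number spacing, so it lacked the rough sign of a clear signal.

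HNRNPH3 on MmugDNA.1842.1.S1_at had -0.48, 0.25 and 1.21 in IPS trained, 0.47, 0.56 and 1.02 in IPS control, -0.38, -1.19 and 0.00 in SII trained and -0.77, 0.00 and -0.26 in SII control animals. IPS trained 1 lay inside the SII range and the other IPS arrays above it, with a difference of 0.93 ± 0.31 (adjusted p = 0.471 in limma). This probe set also had a fine number spacing, and it was the only 1 of 5 for HNRNPH3 with an unadjusted p under 0.05. HNRNPH2 had 0.64 (adjusted p = 0.493 in limma). Other hnRNPs at this level, named after their values were seen, were HNRNPA1 (0.68, adjusted p = 0.514), HNRNPLL (MmugDNA.6746.1.S1_at, 0.45, adjusted p = 0.494) and HNRNPL (MmugDNA.20453.1.S1_at, 0.33, adjusted p = 0.507), all in limma. The 38 hnRNP probe sets outside the HNRNPH genes had 27 above 0 and a median of 0.16.

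The hnRNP gap between the regions was widest in the arrays of the female animals, both of which are SII arrays. The class median was 0.32, -0.09 and -0.03 in IPS trained, 0.05, 0.18 and 0.18 in IPS control, -0.04, -0.49 and 0.02 in SII trained and -0.34, -0.01 and -0.06 in SII control animals. The lowest array medians, -0.49 and -0.34, were those of the females, SII trained 2 and SII control 1. In the HNRNPH genes the medians of these arrays were -0.79 and -0.61, against -0.18 to 0.37 in the other 10 arrays.

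**Figure D3:**
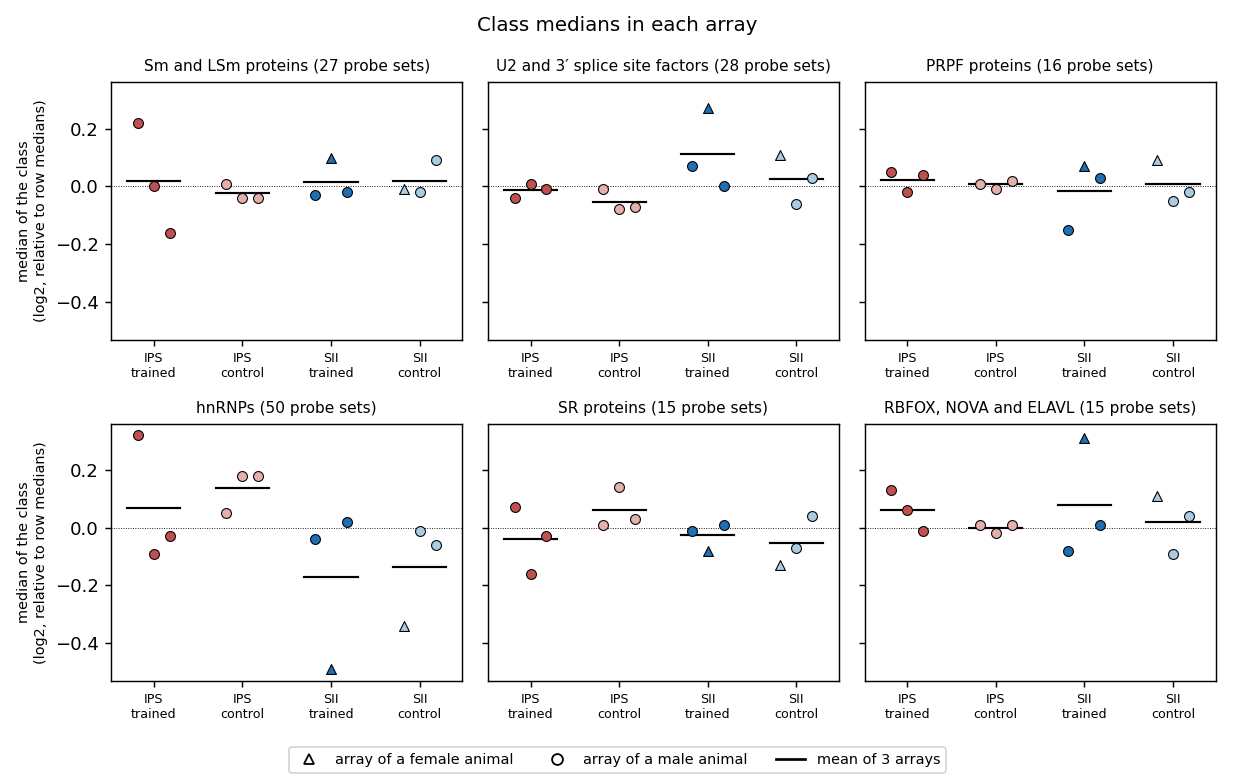
Median of each splicing factor class in each array, in log2 units against each probe set's own median, with triangles for arrays of female animals, circles for arrays of males and bars for group means of 3 arrays. The hnRNP medians of the female animals, -0.49 and -0.34, are the lowest of the 12, while those of the U2 class, 0.27 and 0.11, are the highest.

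Both female arrays lay below all 10 male arrays in 16 of 50 hnRNP probe sets, which is 32.0%, and in 8 of the 12 HNRNPH probe sets, against 7.3% of all probe sets and 12.6% of all those with coarse spacing. They lay above all male arrays in 1 hnRNP probe set, of HNRNPUL1, against 9.42% of all. The median difference, female minus male, was -0.48 for hnRNPs and 0.14 for all probe sets, and within SII it was -0.41 for hnRNPs, with 42 of 50 lower in females. These females were also younger than the SII males, and both arrays had raised hybridisation controls, so sex, age and array quality cannot be told apart here. The regional difference was also fitted without these arrays, which does not separate sex, age and array quality.

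With male animals only, the hnRNP median of the regional difference was 0.13 with 31 of 50 above 0 and 3 higher at p under 0.05, and with sex as a covariate it was the same. The share of all probe sets at that level was not computed for these fits. Without the 3 arrays with raised hybridisation controls it was 0.13 with 33 above 0. Within the 4 animals that gave both regions, all male, it was 0.15 with 36 above 0. For the HNRNPH genes the median was 0.25 with 10 of 12 above 0 in males only and 0.30 with 12 of 12 in those 4 animals.

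**Figure D4:**
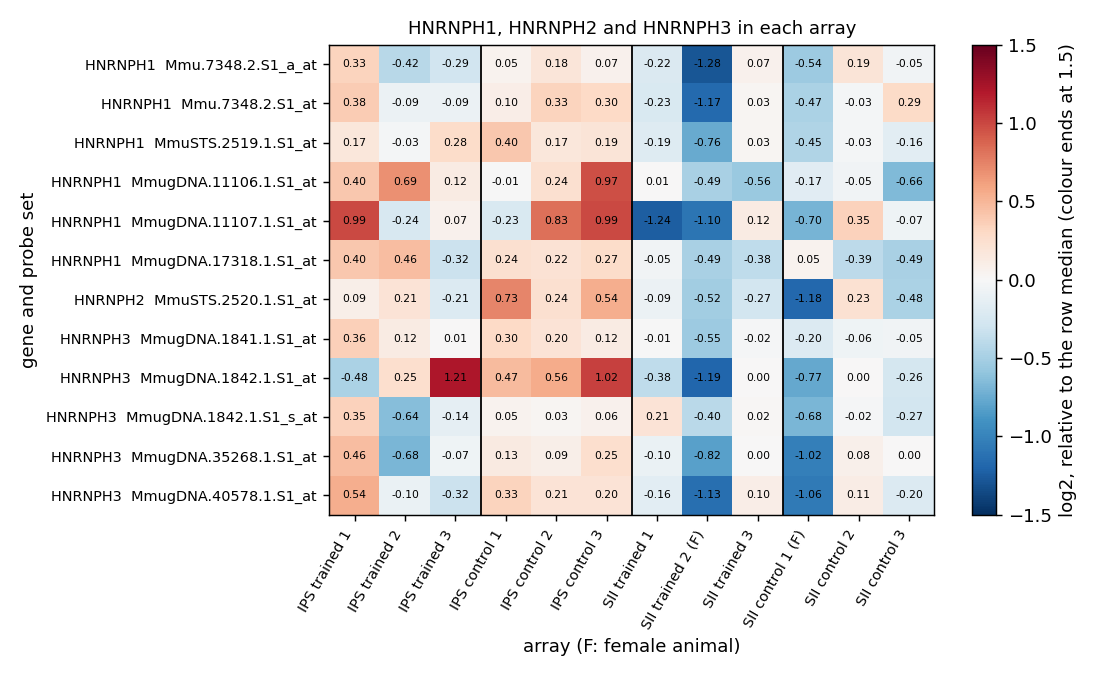
Values of the 12 probe sets of HNRNPH1, HNRNPH2 and HNRNPH3 in each of the 12 arrays, in log2 units against each probe set's own median, shown as colour and number, with lines between the groups. The columns of the female animals, SII trained 2 and SII control 1, hold most of the dark blue cells. Column medians are 0.37, -0.06 and -0.08 in IPS trained and 0.19, 0.21 and 0.26 in IPS control animals.

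Some other members also lay apart in the female arrays. PRPF39 was at -1.51 in both, against -0.75 to 0.37 in the males. All 4 probe sets of PRPF38B lay lower in both females than in every male. The opposite held for SNRPA, a protein of the U1 particle, at 1.04 to 1.14 in females and -0.17 to 0.40 in males. Over all members, 31 of 151 lay below the males in both female arrays and 19 above, which is 20.5% and 12.6%. Of all probe sets 7.3% lay below and 9.42% above, and of those with coarse spacing 12.6% below and 11.5% above. The members' share above was thus near the coarse background.

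RBFOX2 had the smallest p of all members in the regional comparison and the opposite sign. On MmugDNA.24805.1.S1_at it had 0.11, -0.11 and -0.79 in IPS trained, -0.47, -0.44 and -0.65 in IPS control, -0.16, 0.41 and 0.17 in SII trained and 0.76, 0.41 and 0.60 in SII control animals. Controls of the regions were well separated, trained animals overlapped, and the difference was -0.75 ± 0.19 (adjusted p = 0.421 in limma). Among the 4 animals with both regions, IPS minus SII was 0.27, -0.87, -0.97 and -1.04, and with males only the difference was -0.65 ± 0.21. The other RBFOX2 probe sets had -0.04 and -0.38, and those of RBFOX1 -0.23, 0.05 and 0.14.

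ELAVL1 and ELAVL4 lay higher in IPS without overlap between the regions. ELAVL1 (HuR), the widely expressed member of the family, had 0.21, 0.01 and 0.36 in IPS trained, 0.42, 0.19 and 0.58 in IPS control, -0.01, -0.22 and -0.22 in SII trained and -0.02, -0.37 and -0.62 in SII control animals. The difference was 0.54 ± 0.16 (adjusted p = 0.429 in limma), and it was 0.22, 0.79, 0.58 and 0.81 within the 4 animals. With male animals only it was 0.60 ± 0.16, so it was as large without the female arrays.

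ELAVL4 (HuD), a neuronal member, had 0.46, 0.33 and 0.06 in IPS trained, 0.23, 0.10 and 0.22 in IPS control, -0.23, -0.55 and -0.06 in SII trained and -0.49, -0.16 and -0.18 in SII control animals on MmugDNA.23075.1.S1_at. The difference was 0.51 ± 0.15 (adjusted p = 0.442 in limma) and 0.39 ± 0.15 with males only. The other ELAVL4 probe set had 0.09. ELAVL2 had 0.38 ± 0.14 on MmugDNA.33494.1.S1_at (adjusted p = 0.494 in limma) and 0.16 on its other probe set, with 0.29 ± 0.14 for MmugDNA.33494.1.S1_at in males only.

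ELAVL3 (HuC), another neuronal member, had the opposite sign, on a probe set with a fine number spacing. It had -1.38, -0.09 and -0.42 in IPS trained, -0.59, 0.17 and 0.05 in IPS control, -0.94, 1.47 and -0.05 in SII trained and 1.35, 0.31 and 1.10 in SII control animals. The highest values, 1.47 and 1.35, were those of the females. The difference was -0.91 ± 0.40 (adjusted p = 0.534 in limma), and -0.49 ± 0.34 with males only. NOVA1 had -0.18 and 0.23 and NOVA2 -0.16, so the class held differences of both signs, with 3 probe sets higher and 2 lower at p under 0.05.

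**Figure D5:**
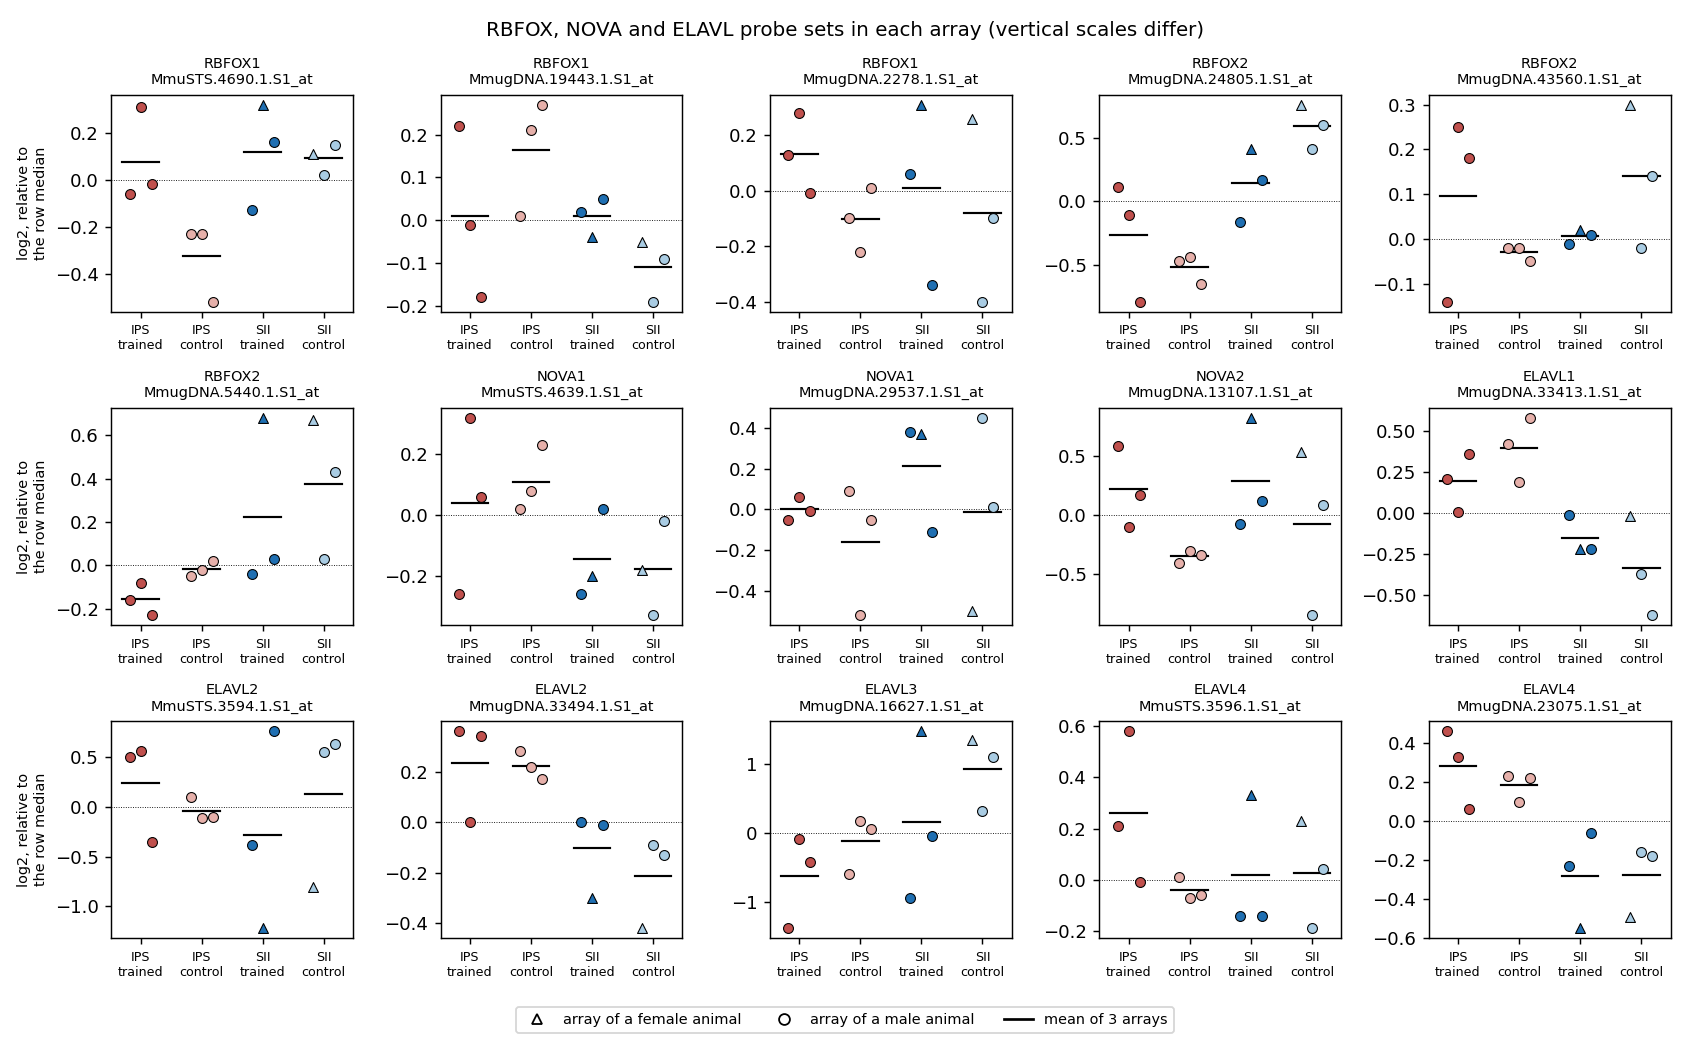
Values of the 15 probe sets of RBFOX, NOVA and ELAVL genes in each array, in log2 units against each probe set's own median, with triangles for arrays of female animals, circles for males and bars for group means of 3 arrays, on vertical scales that differ between panels. ELAVL1 and ELAVL4 (MmugDNA.23075.1.S1_at) lie higher in all IPS arrays, and RBFOX2 (MmugDNA.24805.1.S1_at) is lower in IPS with a difference of -0.75.

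SF3A1 is another subunit of the SF3A complex. On MmugDNA.431.1.S1_at it had -0.26, -0.49 and -0.18 in IPS trained, -0.60, -0.41 and 0.19 in IPS control, 0.16, 0.37 and 0.32 in SII trained and 0.58, -0.16 and 0.36 in SII control animals. It was lower in IPS in all 4 animals with both regions, where IPS minus SII was -0.42, -0.45, -0.50 and -0.77, with a difference of -0.56 ± 0.19 (adjusted p = 0.471 in limma) and -0.47 ± 0.21 in males only. Of the 8 SF3A1 probe sets 7 were below 0, with a median of -0.25.

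PRPF38B had 0.04, 0.21 and 0.21 in IPS trained, 0.19, 0.02 and 0.18 in IPS control, -0.02, -0.40 and -0.08 in SII trained and -0.46, -0.18 and -0.19 in SII control animals on MmugDNA.4463.1.S1_at. No IPS array overlapped with an SII array (0.36 ± 0.14, adjusted p = 0.505 in limma). All 4 probe sets of the gene lay at 0.36 to 0.42, but with males only that of MmugDNA.4463.1.S1_at was 0.26 ± 0.13.

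In the remaining classes 1 member each had p under 0.05. LSM14B, an LSm-domain protein of messenger ribonucleoprotein granules rather than of the spliceosome, had 0.74, 0.06 and -0.05 in IPS trained, 0.45, 0.44 and 0.32 in IPS control, -0.03, 0.03 and -0.24 in SII trained and -0.26, -0.03 and -0.05 in SII control animals. IPS trained 3 was within the SII range (difference 0.42 ± 0.17, adjusted p = 0.505 in limma). SRSF6, an SR protein, had 0.12, 0.16 and -0.04 in IPS trained, 0.22, 0.32 and 0.04 in IPS control, 0.06, -0.04 and -0.43 in SII trained and -0.23, -0.41 and -0.16 in SII control animals on MmugDNA.39000.1.S1_at. The arrays of the regions overlapped slightly (0.34 ± 0.15, adjusted p = 0.516 in limma), and the other SRSF6 probe set had 0.33.

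Within the 4 animals that gave both regions, IPS lay above SII in all 4 for 28 of 151 members, against 9.07% of all probe sets, and below SII for 10, against 7.06%. Most members have coarse spacing, and the share among all probe sets with coarse spacing was not computed. The members' counts therefore cannot be set against a background of like spacing. The hnRNPs had 12 probe sets above and 1 below, while the U2 and 3′ splice site factors had 2 above and 6 below. Sm and LSm proteins and PRPF proteins had 4 above and none below each.

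Probe sets of the same gene often differed in sign. Over the 12 arrays the median correlation of 157 pairs of the same gene was 0.33, against 0.03 for 11168 pairs of different member genes, as a description of these arrays. Pairs of different hnRNP genes had 0.27 over 12 arrays and 0.14 over the 10 male arrays. Of 41 genes with several probe sets, all changes of a gene had 1 sign in 18 for SII training, 23 for IPS training and 19 for IPS minus SII. When the probe sets of a gene were averaged before the fit, none of the 69 genes passed 5% in any comparison, and 9 genes lay higher and 4 lower in IPS at an unadjusted p under 0.05. Of all 14132 genes 10.7% had such a p in that comparison, and 3 passed 5% after adjustment.

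Splicing genes outside the rule were counted from 5 lists. Of all probe sets, 3.87% had an unadjusted p under 0.05 for SII training, 3.27% for IPS training and 9.26% for IPS against SII. Among all those with coarse spacing it was 1.61%, 1.33% and 10.3%. Proteins of U1 and other snRNPs (67 probe sets of 27 measured genes) had 1 lower in SII, 1 higher in IPS and 7 higher and 3 lower in IPS against SII at an unadjusted p under 0.05. RBM17, a protein of 3′ splice site choice, had an SII change of -0.74 (adjusted p = 1.0 in limma). NAA38, listed by its symbol alone and not shown here to be a splicing protein, had 0.76 in IPS (adjusted p = 1.0 in limma). Proteins of the Prp19 complex, the catalytic steps and the exon junction (55 probe sets) had none in SII, 2 higher in IPS and 7 lower in IPS against SII. RBM22 and XAB2, both of the catalytic spliceosome, had IPS changes of 1.07 and 1.05 (adjusted p = 1.0 each in limma). CDC5L, of the Prp19 complex, lay lower in IPS than in SII, with a difference of -1.58 ± 0.30 (adjusted p = 0.228 in limma).

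Other regulators of splice site choice (86 probe sets) had 1 higher in SII, 1 higher in IPS, and 2 higher and 6 lower in IPS against SII. KHSRP, a KH-domain protein, had an IPS change of 2.08 ± 0.60 (adjusted p = 1.0 in limma), and MATR3, a nuclear matrix protein, an SII change of 1.99 on 1 probe set and -0.64 on another (adjusted p = 1.0 each in limma). Kinases of SR proteins (13 probe sets) had none in either training comparison, and DYRK1A was 0.33 higher in IPS than in SII (adjusted p = 0.534 in limma). The SMN complex, which loads Sm rings (23 probe sets), had none in SII and 1 higher in IPS training, TGS1 at 0.59 (adjusted p = 1.0 in limma). Between the regions it had 1 lower in IPS, GEMIN4 at -0.55 (adjusted p = 0.505 in limma). List medians lay between -0.06 and 0.06 for training in both regions. The lists' shares at an unadjusted p under 0.05 were 0.0% to 1.49% for SII training and 0.0% to 4.35% for IPS training. For IPS against SII they were 14.9% for U1 and other snRNPs and 12.7% for the Prp19 list. They were 9.3% for other regulators, 7.69% for the kinases and 4.35% for the SMN complex. The share of other regulators was thus that of the array, 9.26%.

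Marker lists of cell types were read beside these results. For the regional comparison the microglia list had 2 of 15 probe sets above 0 and a median of -0.31, with array medians of -0.33 to 0.11 in IPS trained, -0.23 to -0.07 in IPS control, -0.10 to 0.29 in SII trained and 0.14 to 0.32 in SII control animals. Other lists had regional medians of 0.04 for pan-neuronal, -0.11 for excitatory, 0.11 for GABA neuron, -0.05 for astrocyte and -0.10 for oligodendrocyte markers. They were -0.26 for oligodendrocyte precursor (1 of 7 above 0), -0.28 for choroid plexus (2 of 6), -0.14 for red blood cell, 0.02 for endothelial and 0.01 for meninges markers. In IPS training the excitatory list had 0.23, the pan-neuronal list 0.17 and the GABA list -0.17, while red blood cell markers had 0.37 (3 of 4 above 0) and endothelial ones -0.22. In SII training the meninges list had -0.42 over 14 probe sets, with 2 lower at p under 0.05. There choroid plexus markers had 0.24 (6 of 6 above 0), red blood cell markers 0.31 (4 of 4) and oligodendrocyte precursor markers 0.17. Because values are centred, whether defining markers are present or absent cannot be read from them, and the part of these lists in the results was not tested.

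RNA integrity was read from the 3′ and 5′ probe sets of GAPDH and actin. For GAPDH the difference, 3′ minus 5′, was -0.24, 0.16 and 0.89 in IPS trained, 0.28, -0.02 and -0.10 in IPS control, 0.77, -0.05 and -0.23 in SII trained and -0.31, -0.27 and -0.51 in SII control animals. All SII trained arrays lay above all SII controls for GAPDH. For actin the difference was -0.79, 0.54 and 1.37 in IPS trained, 0.02, 0.23 and 0.05 in IPS control, 1.17, 0.63 and -1.54 in SII trained and 0.25, -1.87 and -1.71 in SII control animals. The SII groups overlapped for actin. The regions differed too. For actin, SII trained 3, SII control 2 and SII control 3 lay below every IPS array, at -1.54, -1.87 and -1.71. All of these SII arrays came from animals that gave both regions. For GAPDH, all IPS controls lay above all SII controls. The part of RNA integrity in the SII training changes and in the regional differences was not tested.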

How the data were processed

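The deposited table holds 1 log2 value per probe set and array, which the authors had centred to a median of 0 for each probe set (largest absolute median 2.5e-07). The log base was inferred from the values, MAS5 is named per the submitters' processing notes, and how arrays were scaled to each other is not stated in the labels. Of 52865 probe sets 99 controls were left out. Symbols came from the array's gene table, with 24956 probe sets having 1, 361 several and 27449 none. Probe sets that held an array's lowest value in at least 2 arrays (9898) and coarse (25346) or fine (17522) number spacing were read from the stored numbers. As a check of the spacing, 137 of 161 ribosomal and respiratory chain probe sets were coarse, against 32 of 276 of olfactory, taste, keratin-associated and HOX genes.

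A model of 4 group means with the animal as a random block (correlation 0.0474) was fitted per probe set with limma 3.58.1 and statmod 1.5.0 under R 4.3.3, followed by empirical Bayes moderation and 2-sided tests adjusted by Benjamini-Hochberg over all 52766 probe sets. Residual degrees of freedom were 8 and prior ones 2.22, and the median standard error of a training change was 0.44 over all probe sets. An exact permutation test of 3 against 3 cannot go below 0.10. The code was tested on simulated data. The number of arrays limits the precision.

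The members, classes, other lists and tests were chosen with earlier results of these data known. Per comparison and class, the text names up to 2 higher and 2 lower members of smallest unadjusted p among those under 0.05 with no lowest value, otherwise the single smallest p, for the average over regions the 5 smallest p, all RBFOX, NOVA and ELAVL genes, and in the other lists the 2 smallest p among what it prints. Alternatives covered normalization, weights, sex, age, the animal block, a replicate block, male animals, animals with both regions, leaving out single arrays, the spacing and averaging per gene. The fit without the arrays with raised hybridisation controls was added after seeing the data. Arrays with equal replicate numbers did not deviate together (correlations of -0.20 to 0.06 over 18 pairs). Neither did arrays of the same animal (-0.09 to 0.06 over 4 pairs), so low correlation here cannot exclude a shared block.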

Additional observations from a re-analysis of the deposited data

Results flagged for a closer look

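SRSF10 (MmugDNA.35582.1.S1_at) had opposite training changes in the regions, with every trained array above every control in IPS and below every control in SII. For this SRSF10 probe set the training change in IPS minus that in SII was 0.95 (adjusted p = 1.0 in limma, 3 arrays a group). It ranged from 0.79 to 1.06 when single arrays were left out and was 0.85 without the 3 arrays with raised hybridisation controls. The second probe set of the gene had 0.48.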

How the results depend on the processing

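The number of members past 5% after adjustment was 0 in limma in all 5 comparisons under every alternative run, against 2 at an unadjusted p under 0.05 in SII, 2 in IPS, 2 for the difference, 0 for the average and 18 for IPS minus SII. The named changes that were recomputed kept their direction under every alternative run. The median difference between the training changes of the members was -0.02 and ranged from -0.06 to 0.06 when single arrays were left out, with 0.06 without IPS trained 3. The median of IPS minus SII was 0.09, against 0.03 with male animals only, 0.03 with sex as a covariate and 0.01 with the probe sets of a gene averaged, and the cause was not tested. The fits with male animals only and with sex as a covariate give nearly the same regional estimate by design. Medians with single arrays left out lay between -0.03 and 0.05 for SII, -0.08 and 0.03 for IPS, -0.04 and 0.01 for the average, and 0.05 and 0.12 for IPS minus SII.

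Counts at an unadjusted p under 0.05 were less stable. The share of all probe sets at that level was not computed for the alternative fits. The counts below therefore cannot show whether the members moved differently from the array as a whole. In IPS 8 members passed without the 3 arrays with raised hybridisation controls and 6 with array weights, against 2 as reported, and 4 passed without IPS trained 3. Those 8 included SF3B3 (-2.47) and SF3B6 (-2.16). The fit leaves out IPS trained 3, the highest of the IPS trained arrays for both. In SII 4 passed without those 3 arrays, 2 probe sets of SF3A3 and 1 each of HNRNPL and HNRNPC, but not SRSF10 and HNRNPK, and 4 with age as a covariate, 0 with array weights or quantile normalization, and 0 without IPS control 1, IPS trained 1, IPS trained 2 or SII control 3. For the difference 12 passed without the 3 arrays, 7 without IPS trained 3, and 5 without SII control 2 or without SII trained 3. For the average 4 passed without SII control 1 and 3 without the 3 arrays. For IPS minus SII 29 passed with coarse number spacing only and 10 with sex as a covariate. With a replicate block 1 passed in SII, 2 in IPS, 1 for the difference and 12 for IPS minus SII, the members' medians were 0.01 for SII and -0.03 for IPS, and HNRNPK in SII had -1.73. Arrays with the same replicate number had a median correlation of -0.02, against 0.01 for other numbers. Arrays of the same animal had only 0.04, so this check cannot decide whether a replicate block applies. Signal over background cannot be read from centred values, and 3 arrays a group limit what any member can show.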
